A study of Mus musculus with 8 samples.

Results

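The comparison described here is that of RBP-J knockout macrophages with wild-type macrophages when neither had been stimulated. It uses 4 of the 8 libraries of the series, 2 from each genotype, chosen by their labels alone. RBP-J is the DNA-binding protein through which the cleaved Notch receptor acts on its target genes, and without that partner it holds many of the same genes down. In macrophages it is known as a regulator of inflammatory activation and as a brake on the formation of osteoclasts, the bone-resorbing cells that share a precursor with macrophages. MicroRNAs (miRNAs) are short RNAs cut from hairpin precursors that pair with messenger RNAs, mainly through the seed at bases 2 to 8, and lower their output.

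The cells were macrophages grown from mouse bone marrow for 3 days with M-CSF, the growth factor for this lineage, which came as conditioned medium of the CMG14-12 cell line at the equivalent of 20 ng/ml. The mice had a mixed C57BL/6 and 129 background with over 90% C57BL/6. Knockout mice had the genotype Rbpjf/f; LysM Cre, in which Cre is made from the lysozyme M locus and removes the floxed gene in myeloid cells, while the wild-type label does not say whether those mice carried either allele. The other 4 libraries are the same genotypes after 24 h with TNF, an inflammatory cytokine, and they enter here only as a comparison and in the estimate of the spread. No small RNA value measures Rbpj itself, so the loss of RBP-J was not checked in these libraries. Nothing in the labels ties the libraries of a group to different animals or cultures, so every p-value here reflects the spread among these libraries alone, and that spread may be technical.

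Each genotype has 1 library in a table of CPM (reads of a mature miRNA, as a share of all miRNA reads of the library) and 1 in a second table whose values behave as RPKM (reads of a hairpin, divided by its length and by the size of the library). The CPM libraries were shallow, with 321327 reads in wild type and 353138 in knockout, so that 1 read was worth 3.11 and 2.83 CPM. The RPKM libraries held about 21711932 and 14892731 reads, of which the listed miRNAs took 49.98% in wild type (95% Wilson interval 49.96 to 50.001, counting error only) and 44.63% in knockout (44.61 to 44.66). Between them the tables list 482 miRNAs after arms and gene copies were summed, 197 in both tables, 132 in the CPM table alone and 153 in the RPKM table alone. The myeloid miRNAs miR-223, miR-142a, miR-155, miR-146a, miR-21a and miR-22 were listed in all 4 unstimulated libraries. In the plots and sums below, a difference "relative to the table median" is log2 of knockout over wild type, each value with 1 added, minus the median over the 184 miRNAs tested, which was -0.23 for CPM and -0.08 for RPKM.

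Both tables held a library that stood apart from the others, in the RPKM table only by its count of extreme miRNAs. Over 124 abundant miRNAs (at least 30 CPM and 20 RPKM on average in the unstimulated libraries) the SD of the log2 ratio between 2 libraries of the CPM table was 1.14 to 1.46 when unstimulated wild type was one of them and 0.762 to 0.986 otherwise. In that wild-type CPM library 12 of 146 miRNAs exceeded each of the other CPM libraries more than 3 times, among them miR-24, miR-877, miR-7a, miR-152 and miR-690, while no other CPM library had more than 1 such miRNA. In the unstimulated knockout RPKM library 11 of 187 miRNAs were under 1/3 of the value in every other RPKM library, among them miR-143, miR-31, miR-449a and miR-879, while no other RPKM library had any. The SD of the log2 ratio did not set that library apart. It was 0.523 to 0.761 when unstimulated knockout was in the RPKM pair and 0.459 to 0.731 otherwise. For several named miRNAs whose difference rests on 1 of these libraries, the log2 difference is also given without it, before the median is taken off. Such a fit keeps the other genotype's library of that table and compares it across tables through a fitted offset between them. The value is thus not the ratio left in the other table and can differ from it in sign. The median over all tested miRNAs was itself 0.19 without the wild-type CPM library and 0.021 without the knockout RPKM library, against -0.23 with all libraries.

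The mature sequences below belong to the miRNAs on which the results turn, taken from RefSeq (GRCm38.p6), written 5′ to 3′ with the seed in capitals. The first group stood lower in knockout in both tables, with miR-151 and miR-486a as further members of it.
miR-125a-5p: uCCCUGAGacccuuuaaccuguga
miR-146a-5p: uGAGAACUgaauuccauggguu
miR-24-3p: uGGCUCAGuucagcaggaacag
miR-152-3p: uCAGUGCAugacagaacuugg
miR-210-3p: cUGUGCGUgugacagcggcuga
miR-184-3p: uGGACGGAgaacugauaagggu
The second group stood higher in knockout in both tables and was chosen by those differences. Of its 10 members, 7 fall into 2 seed families, GAGGUAG of let-7 and ACAUUCA of miR-181. These families hold 8 and 4 of the 184 tested miRNAs, and their near-identical members are not separate observations.
let-7a-5p: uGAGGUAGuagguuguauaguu
let-7g-5p: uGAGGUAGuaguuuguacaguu
miR-98-5p: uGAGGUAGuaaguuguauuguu
miR-181a-5p: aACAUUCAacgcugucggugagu
miR-181b-5p: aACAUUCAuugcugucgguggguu
miR-181c-5p: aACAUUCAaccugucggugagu
miR-181d-5p: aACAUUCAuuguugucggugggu
miR-30a-5p: uGU0.29 ± 0.89CAuccucgacuggaag
miR-34a-5p: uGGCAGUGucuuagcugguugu
Within the let-7 family, let-7a-5p differs from let-7g-5p and from miR-98-5p at 2 of 22 bases each, and miR-181b-5p from miR-181d-5p at 1 of 23, none of them in the seed. The line for miR-30a-5p above is misprinted within its seed. The seed of miR-30a-5p is GUAAACA, and its full sequence is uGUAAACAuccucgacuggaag. How the authors assigned reads that fit several near-identical let-7 or miR-181 members or gene copies was not tested, so single members are uncertain. In unstimulated wild type let-7a had 20723 CPM, and 390 RPKM from the 1 hairpin gene listed for it.

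No miRNA passed the test for a difference between unstimulated knockout and wild type. In a limma model over all 8 libraries, with the deposited table as a block, 0 of 184 miRNAs reached an adjusted p under 0.05 (0% called, Benjamini-Hochberg), the lowest adjusted p was 0.191, and the median standard error was 0.75 on the log2 scale. At an unadjusted p under 0.05 stood 5 miRNAs (2.72%), miR-184, miR-125a, miR-151, miR-879 and miR-205, all lower in knockout, and none (0%) was higher. edgeR and DESeq2 on the recovered reads called 0 as well, with 15 and 11 miRNAs at an unadjusted p under 0.05. When the spread was estimated from the 4 unstimulated libraries alone, limma called 4 miRNAs, all lower in knockout. They were miR-125a (adjusted p = 0.00147), miR-24 (adjusted p = 0.00147), miR-151 (adjusted p = 0.00343) and miR-184 (adjusted p = 0.0279). That fit leaves 1 residual degree of freedom, so its p-values lean on a spread shared across miRNAs. They do not measure how well the tables match, as miR-24 had log2 ratios of -3.43 by CPM and -0.59 by RPKM. Under the median-of-ratios scaling 5 miRNAs at an unadjusted p under 0.05 were higher and 7 lower, after rescaling to the listed miRNAs 5 and 5, so the count on each side depends on the scaling. The median-of-ratios scaling also moved the median log2 difference over all tested miRNAs from -0.23 to -0.08.

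The 2 tables shared little of the genotype difference. Of the 124 abundant miRNAs, 76 (61.3%) lay on the same side of the median in both tables, 45 above it and 31 below it, and 48 lay on opposite sides. Across these miRNAs, which share libraries and are not independent, Pearson's r between the tables was 0.16 and Spearman's rho 0.25. The difference also spread more widely in the shallow table, with an SD of 1.14 against 0.523. By CPM, 17 abundant miRNAs (13.7%) lay 2-fold or more above the median and 21 (16.9%) 2-fold or more below it. By RPKM, 4 (3.23%) and 5 (4.03%) did so.

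**Figure D1:**
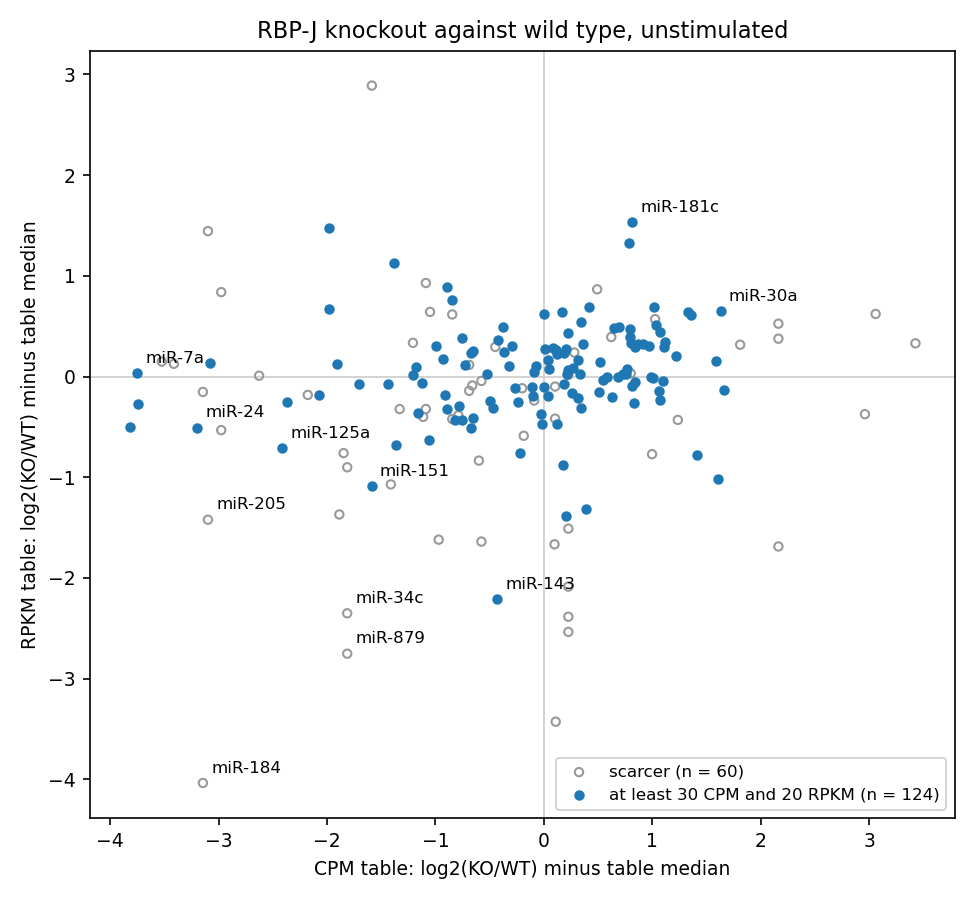
Each point is 1 of 184 miRNAs, with log2 of knockout over wild type minus the table median, CPM table on the horizontal axis and RPKM table on the vertical axis; filled points are the 124 abundant miRNAs. Filled points spread more widely along the horizontal axis (SD 1.14) than along the vertical one (SD 0.523), and miR-151 is the filled point that lies below -1 on both axes.

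On the lower side, 7 of 184 miRNAs (3.8%) lay 2-fold or more below the median in both tables, and none (0%) lay 2-fold or more above it in both. They were miR-151, miR-184, miR-34c, miR-879, miR-195a, miR-205 and miR-1199, and miR-151 was the abundant one among them. The others had at most 12 reads in the wild-type CPM library. Within single tables, 44 of the 184 (23.9%) lay as far below the median by CPM and 20 (10.9%) by RPKM. As far above it lay 26 (14.1%) by CPM and 6 (3.26%) by RPKM. Each table alone thus had more miRNAs far below its median than far above it.

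miR-151 lies in an intron of Ptk2, the gene of focal adhesion kinase (hairpin at chr15:73254815-73254882, minus strand, GRCm38). The CPM table gave 5658 for wild type and 1608 for knockout, and the RPKM table gave 52052 and 23042. Wild type was thus the higher library in both tables, by 3.52-fold and 2.26-fold. The limma log2 difference was -1.49 ± 0.39 (SE, 2 libraries a group, adjusted p = 0.191). Without the wild-type CPM library that stood apart it was -1.13 ± 0.59. With TNF, in libraries that share none with this comparison, it had 3934 CPM in wild type against 1189 CPM in knockout and 60939 RPKM against 19042 RPKM. All 4 wild-type libraries of the series therefore lay above the knockout library of the same table and treatment, and the log2 difference with TNF was -1.70 ± 0.39 (adjusted p = 0.244, limma).

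miR-125a is processed from the same transcript as miR-99b and let-7e and is known in myeloid cells for restraining inflammatory activation. Its hairpin overlaps an exon of Spaca6 (chr17:17830812-17830879, plus strand, GRCm38). In wild type its level was 5536 CPM and 116098 RPKM, and in knockout 886 CPM and 66737 RPKM. Wild type was higher in both tables, but the size differed, 6.25-fold against 1.74-fold. The limma log2 difference was -1.72 ± 0.44 (adjusted p = 0.191) with all libraries and -1.15 ± 0.56 without the wild-type CPM library. With TNF the values were 5257 CPM in wild type and 3028 CPM in knockout, and 201518 RPKM and 105787 RPKM, again lower in knockout in both tables. Its cluster partner miR-99b had 1512 CPM against 476 CPM in knockout, and 116046 RPKM against 104321 RPKM, so it was lower in knockout mainly in the CPM table. let-7e, listed in the CPM table alone, had 2894 CPM in wild type against 3268 CPM in knockout. The 3 members of this cluster thus differed by unlike amounts.

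miR-125b, a paralog with the same seed as miR-125a, had 1407 CPM in wild type against 1031 CPM in knockout, and 1453 RPKM and 807 RPKM. The mature arms with the seed CCCUGAG (miR-125a-5p, miR-125b-5p and miR-351-5p) summed to 10441 CPM in wild type and 3285 CPM in knockout. Most of that difference in the sum lay in miR-125a-5p, with 5378 CPM against 816 CPM.

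miR-24, a broadly expressed miRNA made from the miR-23/27/24 clusters, differed widely in the CPM table only. Its level was 37199 CPM in unstimulated wild type, 3460 CPM in unstimulated knockout, and 1385 and 1410 CPM in wild type and knockout with TNF. The wild-type library stood far above the other 3, which include a wild-type library. In the RPKM table it had 7907 RPKM in wild type and 5237 RPKM in knockout, a 1.51-fold difference. The limma log2 difference was -2.01 ± 1.03 (adjusted p = 0.833) with all libraries and 0.18 ± 0.76 without the wild-type CPM library. The RPKM pair alone had a log2 ratio of -0.59, lower in knockout. Its cluster neighbours differed less, with 2773 against 1977 CPM for miR-23a and 3196 against 3109 CPM for miR-27a.

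The remaining abundant miRNAs on the lower side were closer to the median. miR-146a, which NF-kB induces and which lowers the signalling proteins TRAF6 and IRAK1, had 27035 CPM in wild type against 13717 CPM in knockout, and 213134 RPKM and 149103 RPKM. Its log2 difference was -0.75 ± 0.34 (adjusted p = 0.833, limma), and with TNF it lay below the median in both tables again. miR-210, the main miRNA induced by hypoxia through HIF, had 324 CPM against 173 CPM in knockout and 3945 RPKM against 2616 RPKM. With TNF the same contrast was wider, at 509 CPM against 121 CPM and 3153 RPKM against 911 RPKM. miR-152, from an intron of Copz2, had 327 CPM in wild type, 108 CPM in knockout, and 26.7 and 37.7 CPM in the TNF libraries, so its CPM difference rests on the wild-type library that stood apart. Its log2 difference was -1.18 ± 0.97 with all libraries and 0.13 ± 0.97 without that library. In the RPKM table alone it was still lower in knockout, at 968 RPKM in wild type against 568 RPKM. The erythroid miRNA miR-486a, from an intron of Ank1, had 3302 CPM against 1354 CPM and 1683 RPKM against 1025 RPKM. miR-143, a miRNA of smooth muscle and other mesenchymal cells, had 80.9 CPM against 51.0 CPM but 16593 RPKM against 3380 RPKM. The larger difference lies in the RPKM table, where the knockout library stood apart. The log2 difference of miR-143 was -1.48 ± 1.14 with all libraries and 0.26 ± 1.44 without that library. The remaining CPM pair was nevertheless lower in knockout. With TNF, however, the RPKM table again had 51576 RPKM in wild type against 11410 RPKM in knockout, while the CPM table had 10.7 against 25.9 CPM. miR-700 and miR-505 were close to the limit of the CPM table, with 20 reads against 1 and 21 reads against 11.

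Among the scarce miRNAs on the lower side, miR-184, known from lens and corneal epithelium, had 3 reads in the wild-type CPM library and 0 in knockout, a count of 0 that allows up to 3 reads. In the RPKM table it had 134.8 RPKM (202 reads) in wild type and 6.81 RPKM (7 reads) in knockout, a 19.8-fold difference, and its limma log2 difference was -3.75 ± 0.88 (adjusted p = 0.191). With TNF it had 59.9 RPKM in wild type and 11.7 RPKM in knockout, the same order in that table. Without the unstimulated knockout RPKM library the log2 difference of miR-184 was -3.74 ± 1.19. The knockout side of that value is the CPM library with 0 reads, so it depends on the 1 added before log2. miR-34c, which shares its seed with miR-34a and is best known from ciliated epithelium and testis, had 1905 RPKM in wild type and 351 RPKM in knockout. In the CPM table it had 1 read in wild type and 0 in knockout, so the 2 tables differ widely in its level. miR-879 had 83 reads against 7 in the RPKM table and 1 against 0 in the CPM table. Its log2 difference was -2.44 ± 0.79 with all libraries and -2.18 ± 0.94 without the knockout RPKM library. The second value again takes a CPM library with 0 reads as knockout, so it does not check the RPKM difference. miR-205, an epithelial miRNA, had 12 reads against 1 by CPM and 11 against 2 by RPKM. Its log2 difference was -2.41 ± 1.07 with all libraries and -0.79 ± 1.18 without the wild-type CPM library.

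On the higher side the 10 abundant miRNAs farthest above the median in both tables were miR-181c, miR-181d, miR-34a, miR-30a, miR-181b, let-7a, miR-98, miR-128, let-7g and miR-181a. None had an unadjusted p under 0.05 in limma, and their adjusted p was 0.833 to 0.907. miR-30a, of the miR-30 family that is known to lower autophagy genes, had 1397 CPM in wild type against 3701 CPM in knockout, and 14849 RPKM and 21978 RPKM. Its log2 difference was 0.99 ± 0.48 without stimulation and 0.98 ± 0.48 with TNF, where it had 1115 against 2531 CPM and 23564 against 40277 RPKM. Knockout was thus the higher library in all 4 pairs, but the unstimulated difference was 0.30 ± 0.46 without the knockout CPM library and 1.67 ± 0.46 without the knockout RPKM library. miR-34a, which p53 induces and which targets Notch1 messages, had 131 CPM against 227 CPM and 2671 RPKM against 4067 RPKM, and with TNF 107 against 101 CPM and 2930 against 3193 RPKM, opposite orders. miR-128, best known from neurons, had 607 CPM against 841 CPM and 1669 RPKM against 2219 RPKM.

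**Figure D2:**
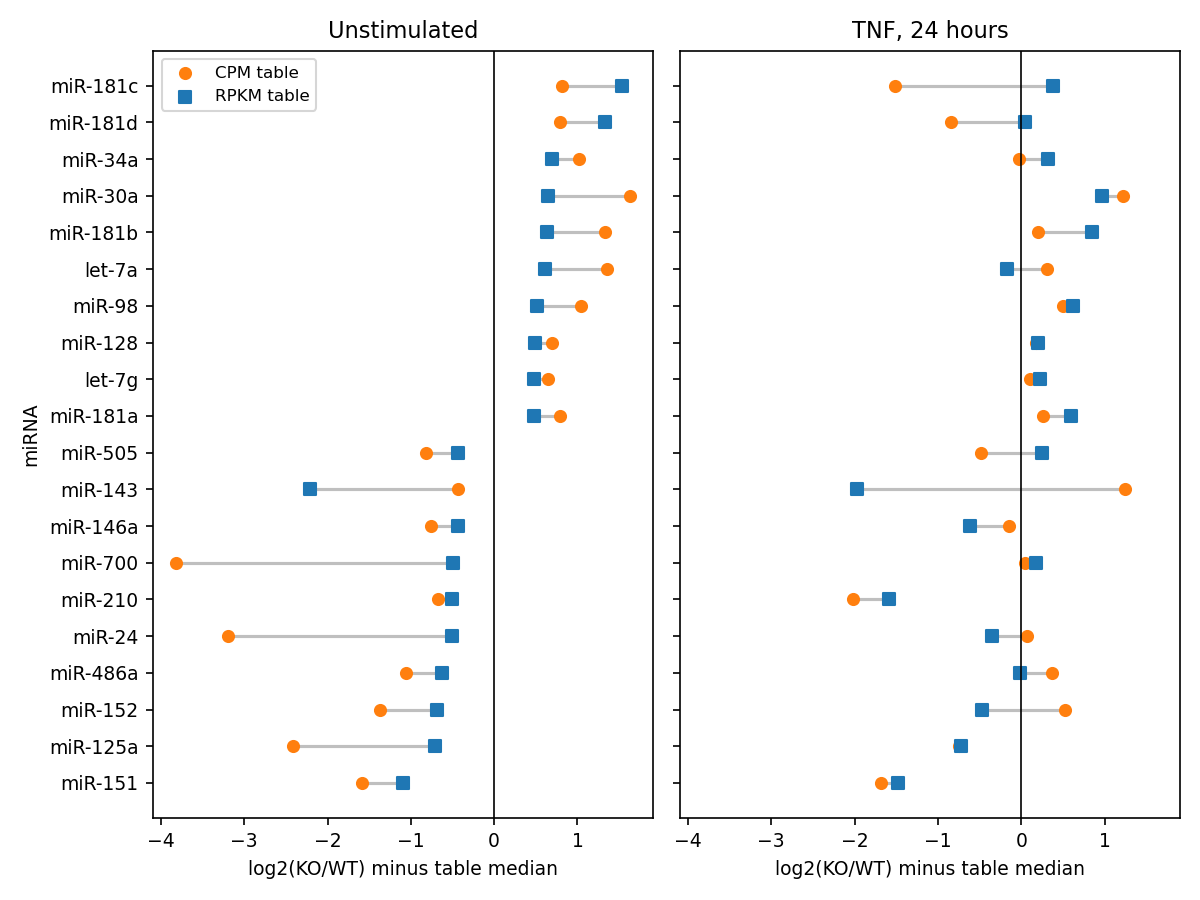
Log2 of knockout over wild type minus the table median for the 10 abundant miRNAs farthest above and the 10 farthest below it, without stimulation (the values that chose them) and with TNF, 1 point for each table. With TNF, 6 of the 10 higher and 4 of the 10 lower miRNAs kept their side in both tables, and the points of miR-125a nearly coincide at -0.75 and -0.73.

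The libraries with TNF share no sample with this comparison, though they come from the same tables. Of the 10 miRNAs on the higher side, 6 lay above the median in both tables with TNF, where 31.5% of the abundant miRNAs did. Of the 10 on the lower side, 4 lay below it in both (29.8% of the abundant miRNAs did), namely miR-151, miR-125a, miR-210 and miR-146a. By table the lower 10 kept their side in 5 cases in CPM and 8 in RPKM, and the higher 10 in 7 and 9. Over the 124 abundant miRNAs the genotype difference without stimulation and that with TNF had a Pearson's r of 0.19 by CPM and 0.55 by RPKM, a description only. No miRNA passed the test for a genotype difference that depends on TNF (0% called, limma, lowest adjusted p = 0.988, none at an unadjusted p under 0.05). edgeR and DESeq2 called 0 too, with 4 and 2 at an unadjusted p under 0.05.

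Among families, the miR-181 family, known for roles in lymphocyte development and blood cell differentiation, had all 4 members above the median in both tables, where 30.4% of all tested miRNAs lay above it in both. miR-181a had 14001 CPM in wild type against 20791 CPM in knockout, and 13146 RPKM and 17233 RPKM. miR-181b had 5754 CPM against 12330 CPM and 11877 RPKM against 17413 RPKM. The scarcer miR-181c and miR-181d, from an intron of Nanos3, had 329 RPKM against 900 RPKM and 170 RPKM against 404 RPKM. In the CPM table they rested on few reads, 12 in wild type against 20 in knockout and 11 against 18. Knockout was higher for each member in each table under every scaling and pseudocount tried. The family's median log2 difference was 0.86, beside -0.23 over all tested miRNAs. With TNF, 2 of the 4 lay above the median in both tables, and miR-181c had 71.1 CPM in wild type against 23.6 CPM in knockout there.

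The let-7 family, which accompanies differentiation in many tissues, took a large share of these libraries. Its 9 listed members summed to 150258 CPM in wild type and 254677 CPM in knockout, and the 8 members of the RPKM table to 259129 RPKM and 286717 RPKM. All 8 tested members lay above the median in both tables, though let-7i did so by 0.00 in the RPKM table and lay on the other side with a pseudocount of 5. Before the median was taken off, 6 of the 8 were higher in knockout in both tables, with let-7b lower in CPM and let-7i lower in RPKM, and under the median-of-ratios scaling all 8 were. The most abundant member, let-7f, had 72804 CPM against 111144 CPM and 112904 RPKM against 130508 RPKM. let-7c had 16326 CPM against 42023 CPM but 9705 RPKM against 10198 RPKM. With TNF, 4 of the 8 lay above the median in both tables and 1 below it, so the pattern was narrower there. CPM is a share of the miRNA reads of a library, so values of such abundant families are not independent of the rest.

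**Figure D3:**
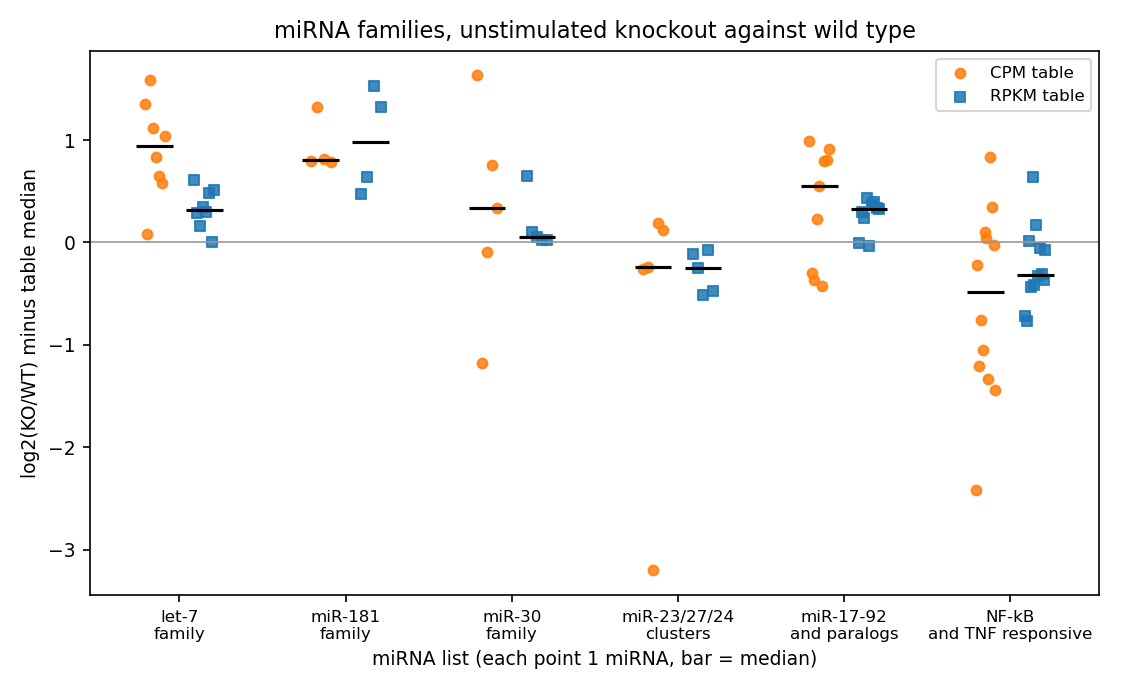
Log2 of knockout over wild type minus the table median for the tested members of 6 lists in unstimulated cells, with circles for the CPM table, squares for the RPKM table and a bar at each median. All 4 miR-181 members lie above 0 in both tables, while in the miR-23/27/24 clusters and the NF-kB list both bars lie below it.

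Other families were mixed, to be read beside the 30.4% of all tested miRNAs that lay on each side in both tables. For the miR-30 family, 3 of 5 tested members lay above the median in both tables and none below it in both, and 2 were split. The miR-17-92 cluster and its paralogs, known as growth-promoting miRNAs, had 4 of 9 above in both and none below in both. miR-92a led them, with 26397 CPM against 39356 CPM and 381448 RPKM against 454308 RPKM. The miR-15/16 family, known for restraining the cell cycle, had none of 4 above in both and 3 below in both. Of these, miR-16 had 49162 CPM against 29886 CPM and 1452 RPKM against 1161 RPKM. miR-322 lay at only -0.02 relative to the median by CPM, and miR-195a had 5 reads against 1 in that table. The miR-23/27/24 clusters had 3 of 5 below in both and none above in both. The miR-29 family had 1 of 3 on each side. None of these lists held a miRNA that passed the test.

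Of 18 tested miRNAs linked in the literature to Notch or RBP-J, 6 lay above the median in both tables, 4 below it in both and 8 were split, beside 30.4% on each side over all tested miRNAs. miR-182, which is known as a promoter of osteoclast formation held down by RBP-J, gave opposite differences in the 2 tables. Its level was 252 CPM (81 reads) in wild type and 657 CPM (232 reads) in knockout, but 717 RPKM in wild type and 334 RPKM in knockout. miR-183 from the same cluster had 9 reads against 23 in the CPM table and 98.7 RPKM against 53.7 RPKM, and miR-96 was under 1 RPKM in both genotypes. With TNF both tables had more miR-182 in knockout, at 763 against 1936 CPM and 887 against 2232 RPKM. The miR-34/449 relatives of miR-34a went the other way in the RPKM table, where miR-449a, a miRNA of ciliated epithelium, had 137 RPKM in wild type and 11.1 RPKM in knockout. In the CPM table miR-449a had 2 reads in each genotype. With TNF it had 206 RPKM in wild type and 208 RPKM in knockout, so its RPKM difference rests on the unstimulated knockout library that stood apart. miR-449c had 28.5 RPKM against 43.9 RPKM with TNF, higher in knockout, while miR-34c stayed lower, at 3006 RPKM against 863 RPKM.

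Of 12 tested miRNAs that NF-kB or TNF is known to regulate, 6 lay below the median in both tables (beside 30.4% of all tested) and 1 above it in both. The 6 were miR-146a, miR-125a, miR-125b, miR-99b, miR-212 and miR-222, and the 1 was miR-155. Several lay close to the median, with miR-222 at -0.02 and miR-155 at 0.04 by CPM and miR-99b at -0.07 by RPKM. miR-212 had 14 reads against 5 in the CPM table. The median log2 difference of the 12 was -0.50, beside -0.23 over all tested. miR-155, which NF-kB induces and which sustains inflammatory signalling, hardly differed, with 177 CPM against 156 CPM and 2655 RPKM against 2814 RPKM. miR-146b had 21399 CPM against 8841 CPM but only 10.1 RPKM against 15.4 RPKM, so its level and its direction differ between the tables. None passed the test.

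Of 10 tested miRNAs known to promote osteoclast formation, 3 lay above the median in both tables and 2 below, near the 30.4% of all tested miRNAs that lay on each side. The 3 were miR-223, miR-29a and miR-148a, and the 2 were miR-125a and miR-99b. Of 8 known to restrain it, 3 lay above (miR-155, miR-34a and miR-26a) and 4 below (miR-146a, miR-125a, miR-34c and miR-503). miR-125a stands in both of these lists, so it is counted on both sides and the counts give it no single role. It and miR-99b also stand in other lists, so the lists are not independent. miR-7a had 461 CPM in wild type against 28.3 CPM in knockout, but 1091 RPKM and 1051 RPKM, and its TNF libraries had 8.90 and 24.7 CPM. Its CPM difference thus rests on the wild-type library that stood apart, without which the log2 difference was 0.29 ± 0.89, against -2.02 ± 1.14 with it. miR-31 was 6.18-fold lower in knockout in the RPKM table, with 1150 RPKM against 186 RPKM, in the knockout library that stood apart, and had 0 reads in both unstimulated CPM libraries. Its log2 difference was -1.31 ± 1.27 with all libraries and -1.79 ± 2.02 without that library. The second value comes from comparing libraries across tables, since the remaining CPM pair had 0 reads. With TNF it had 1723 RPKM against 701 RPKM.

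The most abundant miRNAs showed small differences. miR-22, the most abundant in unstimulated wild type in both tables, had 111734 CPM in wild type against 69197 CPM in knockout, and 1536030 RPKM and 1164780 RPKM. Its log2 difference was -0.55 ± 0.25 (adjusted p = 0.833, limma). miR-27b had 108973 CPM against 101139 CPM and 623955 RPKM against 424450 RPKM. miR-21a, which is known to be induced in activated macrophages, had 48455 CPM against 74130 CPM but 1080900 RPKM against 982346 RPKM. miR-423 hardly differed in either table, with 49576 CPM against 49346 CPM and 9042 RPKM against 8930 RPKM. Of the myeloid miRNAs, miR-223 had 2515 CPM against 4522 CPM and 33103 RPKM against 42379 RPKM, so it was higher in knockout in both. miR-142a, a marker of blood cells, had 13233 CPM against 14314 CPM and 86062 RPKM against 117847 RPKM, the same order. Over the 6 tested myeloid miRNAs, 3 lay above the median in both tables, 2 below it and 1 was split.

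Markers of other cells were present at low to moderate levels and their part in these results was not tested. In the epithelial list (miR-200a, miR-200b, miR-200c, miR-141, miR-429, miR-203 and miR-205) 4 of 7 lay below the median in both tables and none above it in both, and the summed level was 349 CPM in wild type against 207 CPM in knockout and 524 RPKM against 459 RPKM. In the stromal list 2 of 5 tested lay below in both and 1 above, and in the RPKM table, where 7 of its 8 members are listed, 6 of 7 were lower in knockout, against 3 of 6 in the CPM table. The median log2 ratio over all tested miRNAs was itself -0.08 by RPKM and -0.23 by CPM. The stromal list summed to 25784 CPM against 29026 CPM and 188870 RPKM against 260873 RPKM, nearly all of it miR-10a, which is not specific to stromal cells. In the list called lymphoid 2 of 4 lay below in both (miR-342 and miR-205) and 1 above (miR-181a), but miR-205 is also counted in the epithelial list and miR-181a in the miR-181 family. miR-150, the defining lymphocyte miRNA, had 37.4 CPM against 2.83 CPM but 137 RPKM against 354 RPKM. The erythroid miRNA miR-451a was at 3.84 RPKM in wild type and 10.3 RPKM in knockout and miR-144 at 1.40 and 1.02 RPKM, while miR-486a was abundant as given above. The endothelial miR-126a had 24.9 CPM against 11.3 CPM and 275 RPKM against 398 RPKM. The muscle list summed to 4.32 RPKM against 4.08 RPKM, and liver miR-122 had 11 reads against 1 in the CPM table and 2.09 RPKM against 1.02 RPKM. In bulk libraries, fewer cells of a type and less RNA per cell cannot be told apart.

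Among miRNAs listed in the CPM table alone, 27 of 132 reached 30 CPM on average, of which 6 lay 2-fold or more above the median and 9 as far below it. By CPM, 14.1% of all tested miRNAs lay as far above it and 23.9% as far below it, and 13.7% and 16.9% of the abundant ones. The median of the 27 was 0.40 relative to the table median. The lowest were miR-3535, miR-690, miR-3473a, miR-5119 and miR-7062. miR-690 had 1332 CPM in wild type, 76.5 CPM in knockout, and 33.8 and 25.9 CPM in the wild-type and knockout libraries with TNF. All 5 had their highest CPM value in the wild-type library that stood apart. The highest were miR-7688, miR-6960, miR-378d, miR-1839 and miR-3057. Next came miR-378a, from an intron of Ppargc1b, a coactivator of mitochondrial genes, which had 4506 CPM in wild type against 7952 CPM in knockout and is known to promote osteoclast formation.

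Among miRNAs listed in the RPKM table alone, 16 of 153 reached 20 RPKM, of which 1 lay 2-fold or more above the median and 9 as far below it. By RPKM, 3.26% of all tested miRNAs lay as far above it and 10.9% as far below it, and 3.23% and 4.03% of the abundant ones. The median of the 16 was -1.08 relative to the table median, so this set as a whole lay low. The 1 above it was miR-363, a member of the miR-106a cluster on the X chromosome. It had 11.1 RPKM (18 reads) in wild type and 57.3 RPKM (64 reads) in knockout. The lowest were miR-653, miR-1247, miR-455, miR-193b and miR-145a. miR-653, from an intron of Calcr, the calcitonin receptor gene that mature osteoclasts express, had 381 RPKM (703 reads) in wild type and 29.2 RPKM (37 reads) in knockout, and with TNF 214 RPKM against 23.4 RPKM. The order of the genotypes was the same in both treatments. miR-1247, miR-455 and miR-193b belong to the 11 miRNAs that were under 1/3 of every other library in the unstimulated knockout library.

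The CPM table gives the 2 arms of a hairpin separately, so the balance between them can be read as log2 of 5p over 3p in each library. Of 116 miRNAs with both arms listed, 31 had a mean of at least 100 CPM in each arm over the unstimulated libraries, and in 12 of them the balance differed by 1 or more between knockout and wild type. Of these 12, 8 shifted toward 5p and 4 toward 3p in knockout, while the median shift over all 31 was -0.45, toward 3p. Every shift takes the wild-type CPM library that stood apart as its reference. The widest shift toward 5p was that of miR-24, whose 3p arm had 36950 CPM in wild type against 3307 CPM in knockout while its 5p arm had 249 and 153 CPM. The log2 balance of miR-24 was -7.21 in that wild-type library, -4.43 in unstimulated knockout, and -2.88 and -2.72 in wild type and knockout with TNF, so the widest shift rests on the wild-type library. miR-425 and miR-872 shifted toward 5p by 1.65 and 1.60. miR-140, miR-125a and miR-322 shifted toward 3p, with log2 shifts of -1.60, -1.57 and -1.42. For miR-125a the 5p arm had 5378 CPM against 816 CPM and the 3p arm 159 CPM against 70.8 CPM. Of the 31 miRNAs, 16 shifted in the same direction with TNF. With 1 library of each group in this table these shifts have no replicate check.

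**Figure D4:**
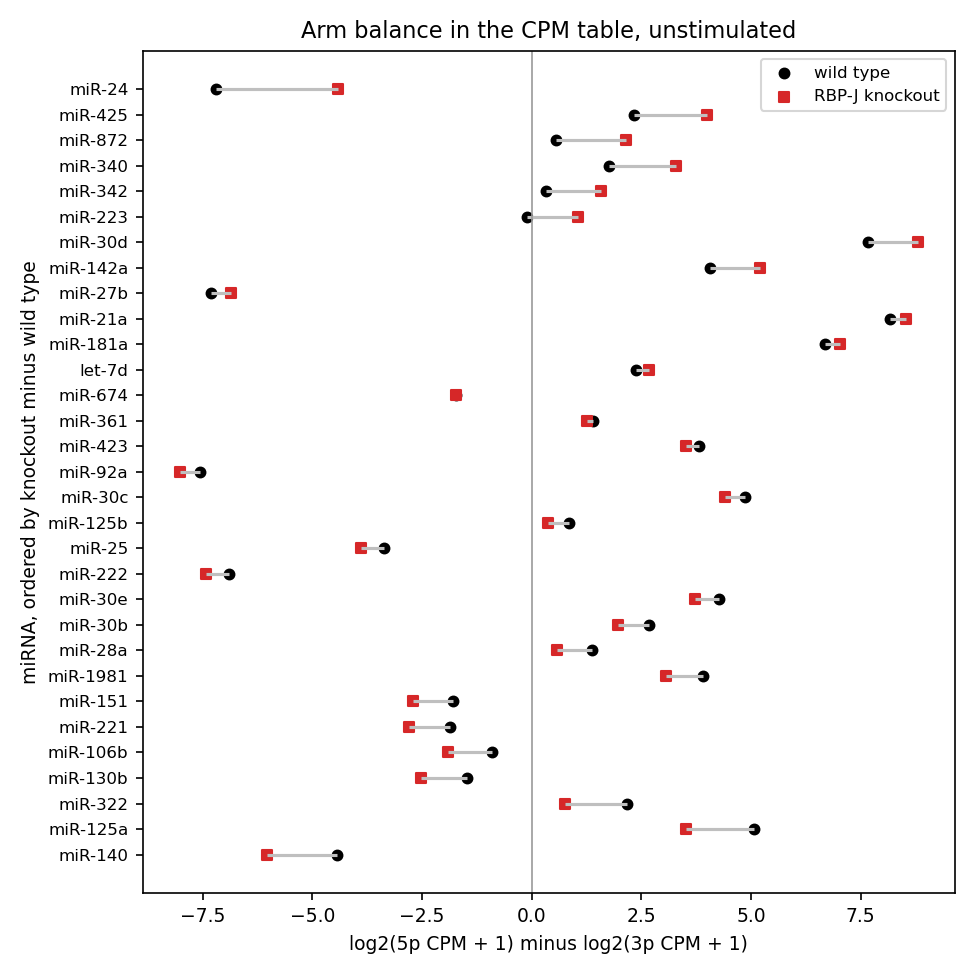
Balance of the 5p and 3p arms of 31 miRNAs in the CPM table (horizontal axis, log2 of 5p minus log2 of 3p CPM, each with 1 added), with circles for unstimulated wild type, squares for unstimulated knockout, and miRNAs ordered by the shift on the vertical axis. In 12 of the 31 rows circle and square lie 1 or more apart, and miR-24 has the widest gap at 2.78. All circles come from the wild-type CPM library that stood apart.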

How the data were processed

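Small RNA libraries came from the Illumina TruSeq small RNA kit, per the labels' protocols, and CASAVA 1.8.2 is named in the submitters' processing notes (aligner, counter and build: not given in the sources used here). The authors deposited CPM for 452 mature miRNAs and, in a second table without a unit name, values read here as RPKM for 371 hairpin genes, since 94.7% to 95.3% of low values were whole reads (tolerance 0.1 read) once multiplied by GENCODE M21 length. Of low CPM values 100% were whole. Columns were matched to groups by name, and the CPM table is called replicate 1. The numbers come from the sample titles, and the deposited table serves as the block. Over the 184 miRNAs, same-numbered libraries deviated together from their groups' means (Pearson's r 0.748 to 0.915), which cannot be told apart from the difference in unit.

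Arms and gene copies were summed for each miRNA. Tested were 184 miRNAs in both tables with a mean of at least 5 over the 8 libraries. limma 3.58.1 (R 4.3.3, trended eBayes, two-sided, Benjamini-Hochberg) was fitted to log2(value + 1), a scale that understates the change of low miRNAs, with 4 groups and the table as block. The named miRNAs were the 10 abundant ones with the largest smaller-of-both relative difference on each side, the 5 with the smallest p, and the 5 most abundant of each table. edgeR 4.0.16 and DESeq2 1.42.0 on the recovered read counts were alternatives, rounded from the authors' deposited values. The fit was tested on simulated data. The members and lists were chosen with earlier results of these data known.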

Additional observations from a re-analysis of the deposited data

How the results depend on the processing

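The count of 0 miRNAs past the adjusted threshold held under the other scalings, pseudocounts and filters. It also held without the block or the trend, and with edgeR and DESeq2. The fit to unstimulated libraries alone, with 1 residual degree of freedom, called 4. Leaving out 1 library gave 0 to 5 calls: 5 without wild type replicate 2 (the RPKM table), 3 without TNF-treated wild type replicate 1, 3 without TNF-treated knockout replicate 1, 2 without TNF-treated wild type replicate 2 and 0 without any of the others. The lone library left in a group was then assumed to vary like the other groups. The count at an unadjusted p under 0.05, 5 in the reported fit, was 12 with median-of-ratios scaling, 10 after rescaling to the listed miRNAs, 3 with a mean of at least 20 in each table, 22 with unstimulated libraries only, 9 without a trend, 15 with edgeR, 11 with DESeq2 and 5 to 39 with 1 library left out. Without the replicate block it was 0. The interaction calls, 0 in the reported fit, were 0 to 2 with 1 library left out. The count of miRNAs 2-fold or more below both medians, 7 as reported, was 4 with a pseudocount of 5 and 3 with the mean of at least 20.

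Relative to the median, 4 of the 23 named miRNAs changed side when 1 library was left out. Where that library was unstimulated, these fits compare libraries across tables, so a changed side need not appear within either table. miR-210 ranged from -1.20 to 0.13, miR-700 from -4.25 to 0.079, miR-143 from -2.81 to 0.24 and miR-505 from -1.39 to 0.29. Over the 23 named miRNAs and 19 settings, 412 of 433 values kept their side and their place against the threshold, 15 passed it and 6 changed side. The cause was not tested. The CPM libraries limit the scarce miRNAs, where 1 read is about 3 CPM.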

Other observations

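Hairpins that lie within 10000 bases of each other on the same strand, and so may come from 1 transcript, offer a further view of the RPKM table. In the miR-17-92 cluster on chromosome 14 all 5 hairpins with at least 20 RPKM lay above the table median, by 0.24 to 0.43 on the log2 scale. In the miR-322/503/351/542/450 cluster on chromosome X, 5 of 6 lay below it, between -0.48 and 0.10. The 3 hairpins of the miR-23a/27a/24 cluster on chromosome 8 lay below it, between -0.51 and -0.07. In the CPM table the median over the miR-17-92 cluster was -0.03, so the narrow shift of the RPKM table was not matched there. Whether hairpins of a cluster share a transcript in these cells was not tested.

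The 3 clusters that hold the miR-181 genes lie on chromosomes 1, 2 and 8, and each of their 6 hairpins lay above the median in the RPKM table, by 0.40 to 1.53. The hairpins miR-34b and miR-34c, neighbours on chromosome 9, lay at -2.09 and -2.35 in that table.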
